A study of Mus musculus with 15 samples.

Results

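The 10 genes described here move acid and bicarbonate in the mouse kidney. They comprise 6 carbonic anhydrases (Car2, Car3, Car4, Car12, Car14 and Car15), the catalytic subunit of a potassium-proton pump (Atp4a), 2 bicarbonate transporters (Slc4a1 and Slc4a4) and an acid-sensitive potassium channel (Kcnk5). The genes were selected on results of these same arrays, and every probe whose current or earlier gene symbol in the platform annotation was one of the 10 was taken. This gave 18 probes among the 45281 on the array, and 10 genes among the 19057 named ones. In build GRCm38.p6 Car3 (chr3:14863538-14872381) and Car2 (chr3:14886269-14900770) are neighbours, and Car14 (chr3:95897768-95905117) shares their chromosome. Car4 (chr11:84957754-84966054) and Slc4a1 (chr11:102348820-102365281) lie on chromosome 11, and the others are Car12 at chr9:66712296-66766845, Car15 at chr16:17835276-17838186, Atp4a at chr7:30712209-30725534, Slc4a4 at chr5:88793858-89239656 and Kcnk5 at chr14:20140057-20181782. Which values led to the list is not known, so the levels, fold changes and calls of these genes are given as a description, with no p-value and with nothing supported by them.

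The samples were kidneys of male C57BL/6 mice, all fed the AIN-93G diet and weaned at 3 weeks of age. The authors reported that restricted mice ate less over the first days and regained normal intake after the first week. Water access and food intake therefore cannot be told apart when RES 1W is set beside CON 1W. Control mice (CON) drank freely, while water-restricted mice (RES) had a bottle for 15 min per day and were killed a day after the last one. Both were studied after 1 week, at 4 weeks of age (CON 1W and RES 1W), and after 4 weeks, at 7 weeks of age (CON 4W and RES 4W). There were 4 arrays of CON 1W, 4 of RES 1W, 3 of CON 4W and 4 of RES 4W, from groups of 5, 6, 6 and 8 animals. Nothing in the labels says that each array is a separate animal, so the errors measure the spread between arrays. Because restriction began at weaning in both RES groups, the age of the mice and the length of restriction cannot be told apart when RES 4W is set beside RES 1W.

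Carbonic anhydrases convert carbon dioxide and water into bicarbonate and a proton and back. Proximal tubule cells use them to recover filtered bicarbonate, with enzyme inside the cell and on its membrane, and return it to blood through a sodium-bicarbonate cotransporter. Intercalated cells of the collecting duct use them to feed proton pumps on one face and chloride-bicarbonate exchangers on the other. Water restriction makes the kidney concentrate urine, and the question asked of each gene is how its level stood in RES against CON of the same age, and in CON 4W against CON 1W.

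Among the 10 genes, probes of Car15, Atp4a and Car14 were the ones called higher in RES 4W against CON 4W with all arrays, and the sequence upstream of the starts of these 3 genes is shown for that reason. Each run holds the 250 bases before a RefSeq transcript start, which for Car14 lies inside the gene's outer bounds, 5′ to 3′ on the gene's own strand, in build GRCm38.p6. The Car15 window is chr16:17838187-17838436 (minus strand), that of Atp4a chr7:30711959-30712208 (plus strand) and that of Car14 chr3:95904686-95904935 (minus strand). Capitals mark any match to one of 3 motifs searched on both strands, TGGAAA (the core bound by the tonicity factor NFAT5), ACGTG (the core of hypoxia elements) and TGACGTCA (the cyclic AMP element), none of which contains another.
Car15: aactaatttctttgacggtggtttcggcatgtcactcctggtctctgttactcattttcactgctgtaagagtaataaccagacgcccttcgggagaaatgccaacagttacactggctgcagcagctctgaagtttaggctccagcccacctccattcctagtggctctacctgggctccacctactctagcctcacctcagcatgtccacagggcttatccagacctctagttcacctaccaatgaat
Atp4a: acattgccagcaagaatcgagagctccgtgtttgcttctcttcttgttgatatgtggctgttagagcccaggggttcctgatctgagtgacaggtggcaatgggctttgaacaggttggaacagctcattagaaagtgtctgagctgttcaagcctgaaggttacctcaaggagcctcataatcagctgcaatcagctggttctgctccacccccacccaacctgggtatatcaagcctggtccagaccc
Car14: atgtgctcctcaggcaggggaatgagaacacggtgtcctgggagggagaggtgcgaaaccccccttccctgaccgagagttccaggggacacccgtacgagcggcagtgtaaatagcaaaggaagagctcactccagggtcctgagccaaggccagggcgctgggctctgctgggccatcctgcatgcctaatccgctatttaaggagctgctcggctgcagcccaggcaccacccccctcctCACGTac
The only match in the 3 windows was ACGTG, read on the other strand, near the end of the Car14 window. ACGTG was found in 16.6% of the 32851 RefSeq windows of this length, TGGAAA in 18.6% and TGACGTCA in 1.55%. Windows were held for 7 of the 10 genes, 8 in all with a pair for Slc4a4, and besides the Car14 match only Car12 held one, TGGAAA on the other strand. Car2, Car3 and Slc4a1 had no entry in that table. A match is a description of the letters and not a binding site.

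Levels are log2 intensities after background correction and quantile normalization, and a level is compared only between arrays for the same probe. A probe counted as detected on an array when its detection p was below 0.05, and as tested when detected on at least 3 of the 15 arrays. Of the 18 probes 16 passed, and each of the 10 genes kept at least 1 probe, so the filter removed no gene. Between 15295 and 17433 probes were detected per array. The proximal tubule marker Slc34a1, a phosphate transporter, lay between 14.64 and 14.91 and the thick ascending limb marker Umod, uromodulin, between 14.11 and 14.34 on the 15 arrays, so both were present throughout. One array stood apart. RES 4W replicate 1 correlated across probes at a mean r of 0.978 with the other RES 4W arrays and at 0.988 with the CON 4W arrays, so the results of the 10 genes and of the called acid-base genes in RES 4W are also given without it.

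Car15, a carbonic anhydrase anchored to the outer face of the membrane, showed the largest differences with restriction among the 16 tested probes, at both ages. Its probe ILMN_2871660 read 10.18, 10.15, 10.29 and 10.13 in CON 1W and 11.63, 11.52, 11.63 and 11.29 in RES 1W. In CON 4W it read 9.96, 9.66 and 9.68, and in RES 4W 10.60, 11.11, 11.06 and 11.01. All RES arrays lay above all CON arrays at either age, and the lowest RES array was RES 4W replicate 1. The log2 fold change was 1.33 (SE 0.12), or 2.52-fold, in RES 1W against CON 1W and 1.18 (SE 0.13), or 2.26-fold, in RES 4W against CON 4W. Without RES 4W replicate 1 the second value was 1.29 (SE 0.12), and the mean of RES 4W moved from 10.94 ± 0.24 (SD, n = 4) to 11.06 ± 0.05 (SD, n = 3). The change with restriction at 4W minus that at 1W was -0.15 (SE 0.18), and -0.04 (SE 0.15) without that array, both smaller than their error. CON 4W against CON 1W was -0.42 (SE 0.13), which missed the threshold. The order of the groups ran from CON 4W (9.77 ± 0.17, SD, n = 3) through CON 1W (10.19 ± 0.07, SD, n = 4) and RES 4W to RES 1W (11.52 ± 0.16, SD, n = 4), with no overlap between neighbours. In RNA of all kidney cells together, more cells that express a gene and more of its RNA per cell cannot be told apart, here and for every gene below.

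Atp4a encodes the alpha subunit of the potassium-proton pump that acidifies the stomach, and the collecting duct holds a low level of the same pump. Its single probe, ILMN_1242979, was detected on all 15 arrays. It read 6.29, 6.18, 6.14 and 5.89 in CON 1W and 6.71, 7.10, 7.26 and 6.73 in RES 1W. It read 6.65, 6.17 and 6.43 in CON 4W and 6.64, 7.04, 7.23 and 7.30 in RES 4W. The groups were separate at 1W, while at 4W RES replicate 1 lay just below the highest CON array and the other RES arrays lay above all of CON. The log2 fold change was 0.83 (SE 0.16) in RES 1W and 0.64 (SE 0.18) in RES 4W against CON of the same age. Without RES 4W replicate 1 the value at 4W was 0.78 (SE 0.16) and the groups no longer overlapped. CON 4W against CON 1W was 0.29 (SE 0.18), with overlap.

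**Figure D1:**
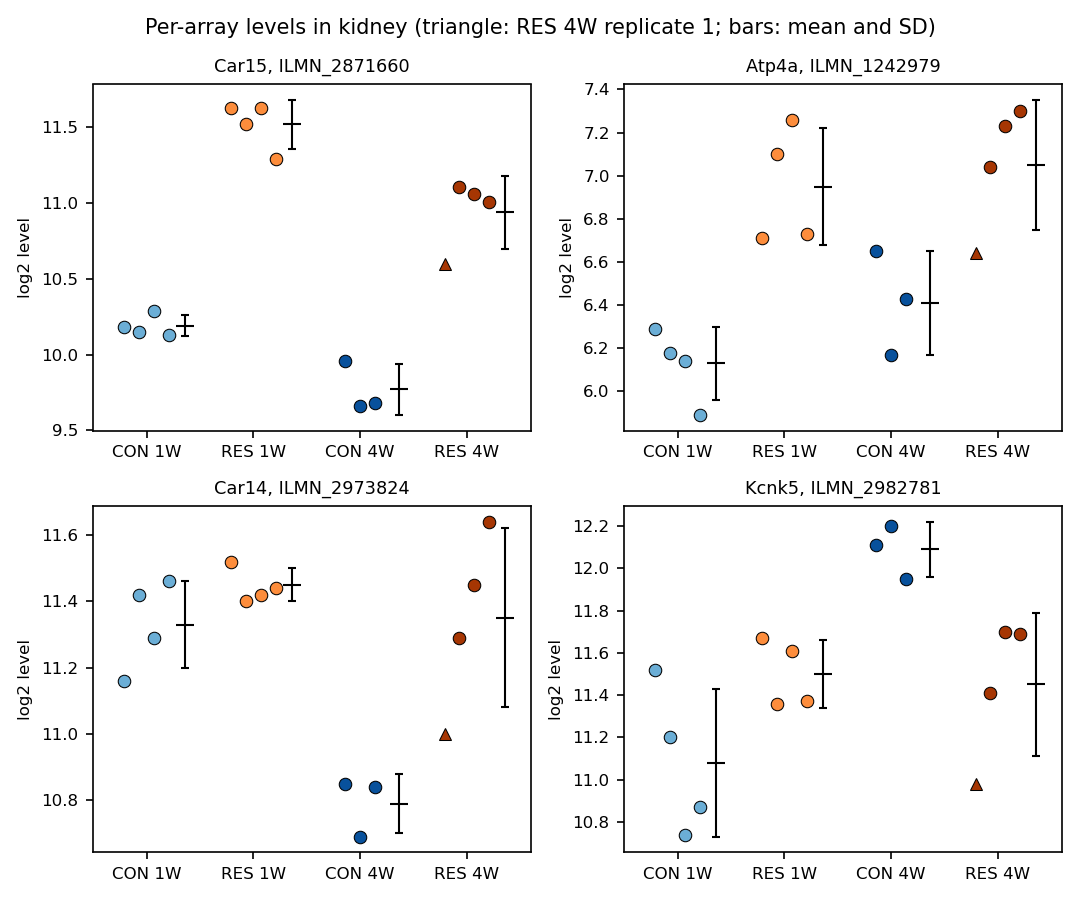
Log2 level (vertical axis) of 1 probe each of Car15, Atp4a, Car14 and Kcnk5 on every array by group (horizontal axis). Each point is an array, the triangle is RES 4W replicate 1, and the bars give the mean and SD of the group. Car15 in RES lies above CON at both ages, with means of 11.52 against 10.19 and 10.94 against 9.77.

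Car14 spans the membrane with its active site outside the cell, and in mouse kidney it is known from the proximal tubule and the thin descending limb. The brighter of its probes, ILMN_2973824, read 11.16, 11.42, 11.29 and 11.46 in CON 1W and 11.52, 11.40, 11.42 and 11.44 in RES 1W. It read 10.85, 10.69 and 10.84 in CON 4W and 11, 11.29, 11.45 and 11.64 in RES 4W. On this probe CON 4W was thus the low group, below all arrays of the other 3. CON 4W against CON 1W gave -0.54 (SE 0.13) and RES 4W against CON 4W gave 0.55 (SE 0.13), so the mean of RES 4W, 11.35 ± 0.27 (SD, n = 4), stood near that of CON 1W, 11.33 ± 0.13 (SD, n = 4). At 1W the value was 0.11 (SE 0.12), and the arrays overlapped. RES 4W replicate 1 was the lowest of its group, and the difference at 4W without it was 0.67 (SE 0.11). The second Car14 probe, ILMN_1220686, was annotated to a record other than a curated (NM_) RefSeq mRNA and moved otherwise at 1W. With age it gave -0.21 (SE 0.19), not called, and its CON 4W arrays lay within the CON 1W range of 6.66 to 7.50. It gave -0.45 (SE 0.17) in RES 1W, with overlapping arrays, and 0.43 (SE 0.19) in RES 4W, where RES arrays at 6.98 to 7.63 lay above CON arrays at 6.83 to 6.93. Its fold change at 4W without RES 4W replicate 1 was 0.54 (SE 0.19).

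Car12, another membrane-spanning carbonic anhydrase, which in mouse kidney is known from the collecting duct, was read by 2 probes. ILMN_1251713 read 12.47, 12.49, 12.18 and 12.21 in CON 1W and 12.25, 11.98, 12.02 and 11.96 in RES 1W, for a log2 fold change of -0.28 (SE 0.11). ILMN_2891583 gave -0.29 (SE 0.15) in the same comparison, with RES 1W at 9.16 to 9.33 below CON 1W at 9.45 to 9.67. The probes thus gave nearly the same value in RES 1W, neither past the threshold. At 4W they parted. ILMN_1251713 gave 0.04 (SE 0.12), while ILMN_2891583 gave 0.35 (SE 0.16) and read 9.27, 9.91, 9.78 and 9.91 in RES 4W against 9.52, 9.03 and 9.55 in CON 4W. RES 4W replicate 1 was the low array of that set, and without it ILMN_2891583 gave 0.50 (SE 0.13) with no overlap, against 0.08 (SE 0.12) for ILMN_1251713. Without CON 4W replicate 2, the low array of its own group, ILMN_2891583 gave 0.18. In CON 4W against CON 1W ILMN_1251713 gave -0.16 (SE 0.12) and ILMN_2891583 gave -0.17 (SE 0.16).

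**Figure D2:**
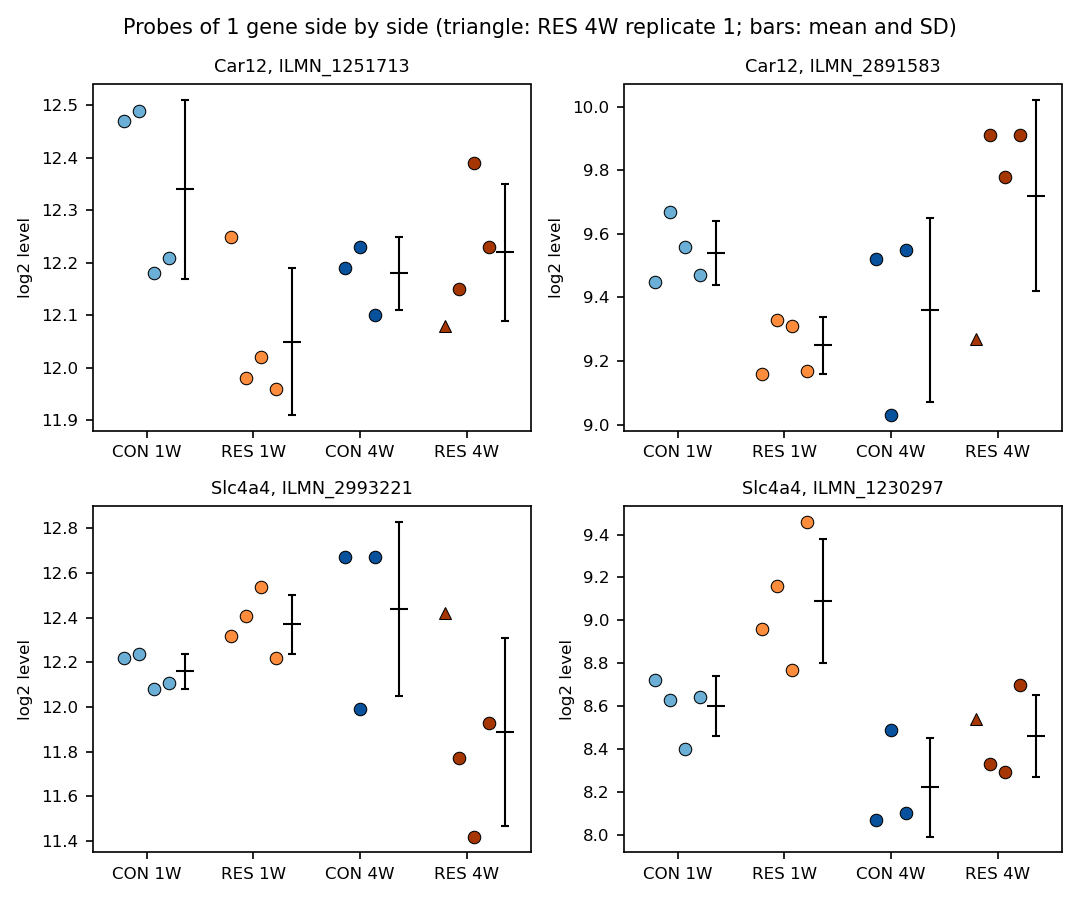
Log2 level (vertical axis) of 2 probes of Car12 and 2 probes of Slc4a4 on every array by group (horizontal axis). Points are arrays, the triangle is RES 4W replicate 1, and the bars give the mean and SD. In RES 4W against CON 4W the Slc4a4 probes differ in sign, at -0.56 for ILMN_2993221 and 0.25 for ILMN_1230297.

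Car4, held on the membrane by a lipid anchor in the proximal tubule, differed little. Its probe ILMN_2655795 had means of 8.38 ± 0.20 in CON 1W, 8.08 ± 0.18 in RES 1W, 8.60 ± 0.28 in CON 4W and 8.62 ± 0.30 in RES 4W (SD, n = 4, 4, 3 and 4). RES 1W against CON 1W was -0.30 (SE 0.16) and RES 4W against CON 4W was 0.02 (SE 0.17), and arrays overlapped in both. Without RES 4W replicate 1, the highest array of all at 9.05, the second value was -0.13 (SE 0.16). CON 4W against CON 1W was 0.22 (SE 0.17).

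Car2, the cytosolic enzyme of proximal tubule and intercalated cells, was read by ILMN_2606746. Levels were 9.91, 9.91, 10.20 and 10.10 in CON 1W and 10.23, 10.19, 10.15 and 10.23 in RES 1W, a difference of 0.17 (SE 0.14). They were 9.81, 9.99 and 9.84 in CON 4W and 10.01, 10.13, 10.57 and 10.77 in RES 4W, a difference of 0.49 (SE 0.15) that missed the threshold. The RES 4W arrays all lay above CON 4W, replicate 1 only just, and without it the difference was 0.61 (SE 0.14) and passed. CON 4W against CON 1W was -0.15 (SE 0.15). A second Car2 probe was detected on 1 of 15 arrays and was not tested.

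Car3 is a cytosolic enzyme of low activity known best from adipose tissue, skeletal muscle and liver. Its probe ILMN_2630047 read 5.31, 5.45, 6.49 and 6.44 in CON 1W and 5.62, 4.84, 4.59 and 4.70 in RES 1W, where only the first array was above background. It read 6.93, 7.08 and 6.63 in CON 4W and 7.37, 6.57, 6.80 and 6.92 in RES 4W. Both 4W groups lay above all 1W arrays, and within CON 1W the arrays fell into a low and a high pair. CON 4W against CON 1W was 0.95 (SE 0.30) and RES 1W against CON 1W was -0.99 (SE 0.28), neither past the threshold with all arrays, and RES 4W against CON 4W was 0.03 (SE 0.30). The last value was -0.12 (SE 0.31) without RES 4W replicate 1. With 1 of 4 RES 1W arrays above background, the size of the RES 1W value depended on how background was treated, and it ran from -1.87 to -0.56 over the alternative settings.

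Adipoq and Cidea, 2 of the 4 adipocyte markers tested, were high on the same CON 1W arrays as Car3. Adipoq, the adipocyte hormone adiponectin, read 4.69, 5.50, 6.65 and 6.34 in CON 1W and 4.84, 4.71, 4.73 and 5.46 in RES 1W. Cidea, a lipid droplet protein, read 4.77, 6.11, 8.05 and 7.52 in CON 1W and 5.14 to 6.05 in RES 1W. The high CON 1W arrays were replicates 3 and 4 for both markers and for Car3. RES 1W against CON 1W was -0.86 (SE 0.34) for Adipoq and -1.07 (SE 0.52) for Cidea, with limma adjusted p = 0.24 and 0.37. In RES 4W against CON 4W, where Car3 differed by 0.03, Adipoq differed by -0.82 (SE 0.37) and Cidea by -1.06 (SE 0.57), with limma adjusted p = 0.17 and 0.25. The other tested markers did not follow Car3 at 1W. Scd1, a fatty acid desaturase, stood at 0.55 (SE 0.22, limma adjusted p = 0.23) in RES 1W, with all RES arrays above CON, and Plin4, a lipid droplet protein, at -0.21 (SE 0.15). In RES 4W Scd1 was the only adipocyte marker called, at -1.08 (SE 0.23, limma adjusted p = 0.02), where 5.83% of all tested genes were called. Of 10 adipocyte markers 9 had a probe and 4 were tested, and their mean level ranged from 6.10 to 7.48 in CON 1W, 6.20 to 6.76 in RES 1W, 6.44 to 7.13 in CON 4W and 5.65 to 6.54 in RES 4W, while Fabp4, Plin1, Cidec, Lep and Retn were not detected on enough arrays to test. Of 10 skeletal muscle markers 3 were tested, with Acta1, Ckm, Myh1, Myh4, Tnnt3, Tnnc2 and Mb below that limit, and the mean of the 3 was 6.90 to 7.49 in CON 1W, 6.61 to 7.10 in RES 1W, 6.83 to 7.09 in CON 4W and 7.04 to 7.30 in RES 4W. One of the 3, Pvalb, a calcium-binding protein that the distal tubule also makes, fell by 0.71 (SE 0.14, limma adjusted p = 0.011) in RES 1W with no overlap, while Mylpf and Actn3, of the contractile apparatus, differed by 0.11 (SE 0.22) and -0.34 (SE 0.18). What part fat or muscle in the samples had in the Car3 levels was not tested.

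**Figure D3:**
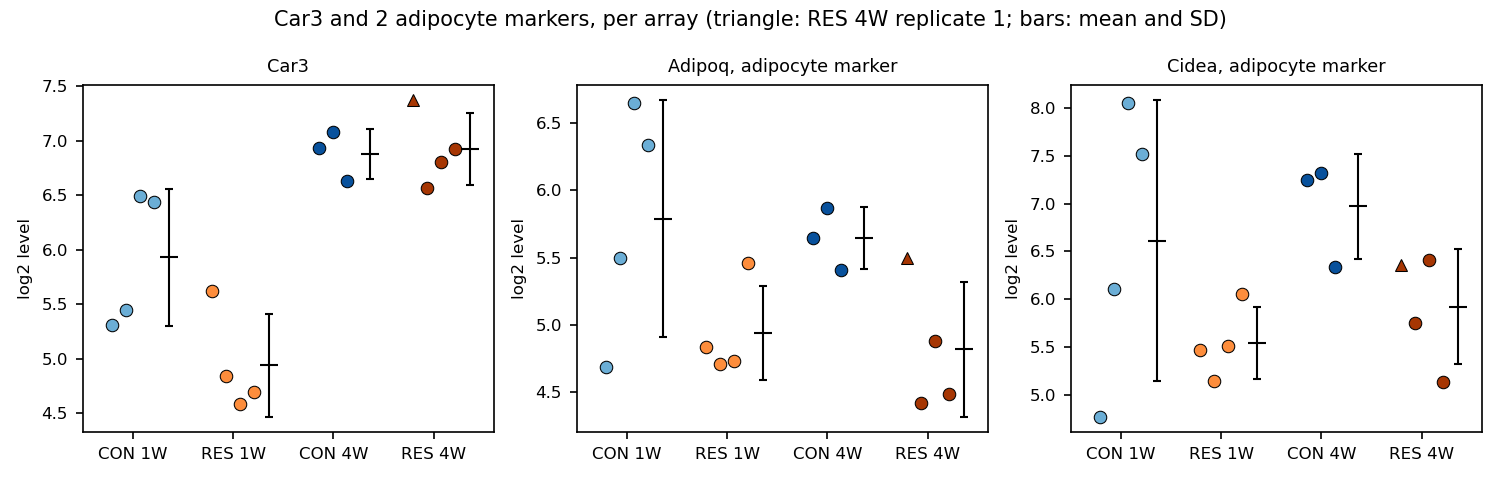
Log2 level (vertical axis) of Car3 and of the adipocyte markers Adipoq and Cidea on every array by group (horizontal axis). Points are arrays, the triangle is RES 4W replicate 1, and the bars give the mean and SD. CON 1W replicates 3 and 4 are the high arrays of that group in all 3 panels, while in RES 4W Car3 stays near the CON 4W mean of 6.88.

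Slc4a1, the chloride-bicarbonate exchanger of red cells and of the basolateral face of type A intercalated cells, showed the smallest differences with restriction at 1W. Its probe ILMN_1227675 had means of 10.79 ± 0.16 in CON 1W, 10.79 ± 0.03 in RES 1W, 10.80 ± 0.16 in CON 4W and 10.63 ± 0.10 in RES 4W (SD, n = 4, 4, 3 and 4). RES 1W against CON 1W was -0.01 (SE 0.10) and RES 4W against CON 4W was -0.18 (SE 0.11), or -0.15 (SE 0.12) without RES 4W replicate 1, with overlap throughout. CON 4W against CON 1W was 0.01 (SE 0.11). Hba-a1, a haemoglobin chain that marks red cell RNA, lay between 14.27 and 14.87 on all 15 arrays. Of 10 red cell markers 6 had a probe and 4 were tested. None was called with restriction, where 3.4% of all tested genes were called in RES 1W and 5.83% in RES 4W. The mean of the 4 ranged from 10.79 to 11.46 in CON 1W, 10.94 to 11.17 in RES 1W, 10.77 to 10.98 in CON 4W and 10.36 to 11.01 in RES 4W, with Epb42 and Ermap below the detection limit. How much of the Slc4a1 level came from blood was not tested.

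Slc4a4, the sodium-bicarbonate cotransporter that carries bicarbonate out of proximal tubule cells, had 4 probes that did not move together. The brightest, ILMN_2993221, read 12.22, 12.24, 12.08 and 12.11 in CON 1W and 12.32, 12.41, 12.54 and 12.22 in RES 1W. It read 12.67, 11.99 and 12.67 in CON 4W and 12.42, 11.77, 11.42 and 11.93 in RES 4W. RES 4W lay mostly below CON 4W, but replicate 1 lay among the CON arrays and CON 4W replicate 2 lay far below the other two. The difference was -0.56 (SE 0.20), which missed the threshold, and -0.73 (SE 0.17) without RES 4W replicate 1, which passed. The probe ILMN_1230297, also annotated to a record other than a curated RefSeq mRNA, instead stood at 0.25 (SE 0.16) at 4W, or 0.22 (SE 0.17) without that array. At 1W ILMN_1230297 read 8.72, 8.63, 8.40 and 8.64 in CON and 8.96, 9.16, 8.77 and 9.46 in RES, a difference of 0.49 (SE 0.15) that missed the threshold, while the brightest probe differed by 0.21 (SE 0.18). In CON 4W against CON 1W the brightest probe gave 0.28 (SE 0.20) and ILMN_1230297 gave -0.38 (SE 0.16), neither past the threshold. ILMN_2776957 was detected on 4 of 15 arrays, all of them RES, and in neither CON group, so no fold change is given. ILMN_1221628 was detected on none and was not tested.

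Kcnk5, or TASK-2, is a potassium channel opened by alkaline pH that supports bicarbonate recovery in the proximal tubule of mice. Its brightest probe, ILMN_2982781, read 11.52, 11.20, 10.74 and 10.87 in CON 1W and 11.67, 11.36, 11.61 and 11.37 in RES 1W. It read 12.11, 12.20 and 11.95 in CON 4W and 10.98, 11.41, 11.70 and 11.69 in RES 4W. CON 4W was the high group, above every array of the other 3. CON 4W against CON 1W was 1.00 (SE 0.19), or 2.01-fold, RES 1W against CON 1W was 0.42 (SE 0.18) and RES 4W against CON 4W was -0.64 (SE 0.19). The probe ILMN_1232263 gave 1.11 (SE 0.20), 0.43 (SE 0.18) and -0.69 (SE 0.20) in the same comparisons, so the probes matched in sign and nearly in size. The fitted values with restriction had opposite signs at the 2 ages, with a difference of -1.06 (SE 0.26) and -1.12 (SE 0.27) on the 2 probes, and the 1W arrays of RES and CON overlapped while the 4W arrays did not. RES 4W replicate 1 was the lowest of its group on both probes. Without it RES 4W against CON 4W was -0.49 (SE 0.17) and -0.50 (SE 0.16), and the difference between the ages was -0.91 (SE 0.23) and -0.93 (SE 0.22). The remaining Kcnk5 probe, ILMN_1249949, was detected on 3 of 15 arrays and in neither CON group, and no fold change is given.

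Counted over the 16 tested probes at an adjusted p below 0.05 in limma, 3 were called in CON 4W against CON 1W, where 2.97% of all 19027 tested probes were called. Both brighter Kcnk5 probes were higher (1.18% of all probes were called higher) and the brighter Car14 probe was lower (1.79%). In RES 1W against CON 1W the Car15 and Atp4a probes were called, both higher, where 2.81% of all probes were called, 1.42% higher and 1.38% lower. In RES 4W against CON 4W 4 were called, Car15, Atp4a and the brighter Car14 probe higher and Kcnk5 ILMN_1232263 lower, where 6.49% of all were called, 3.63% higher and 2.86% lower. None was called for the change with restriction at 4W minus that at 1W, where 0.583% of all were. At an unadjusted p below 0.05 that comparison held 7 of the 16 and 18.7% of all tested probes, and the linear model without moderated variances also called none after adjustment. As the 10 genes were chosen with these arrays in view, nothing is read from these counts. The median log2 fold change over the 16 probes was 0.00 with age, 0.17 in RES 1W and 0.11 in RES 4W, against 0.00 over all tested probes in each.

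Leaving out single arrays changed several of these calls, and a fit on the CON 4W and RES 4W arrays alone called none of the 16. Car15 at both ages, Atp4a in RES 1W and both Kcnk5 probes with age passed whichever of the 15 arrays was left out. Without RES 4W replicate 1, 8 of 16 probes were called in RES 4W against CON 4W (6 higher, 2 lower), where 24.2% of all tested probes were called, and 6 for the difference between the ages, where 15.1% were. The additional 4 in the first were Car2, Car12 ILMN_2891583 and Car14 ILMN_1220686, all higher, and Slc4a4 ILMN_2993221, lower. The 6 in the second were both Car14 probes and Car12 ILMN_2891583, with positive values, and Slc4a4 ILMN_2993221 and both brighter Kcnk5 probes, with negative ones. Atp4a in RES 4W passed without CON 1W replicate 4, RES 1W replicates 1 or 3 or RES 4W replicate 1 and missed without any other array, at 0.52 to 0.78. Kcnk5 ILMN_1232263 in RES 4W passed without CON 1W replicates 1 or 3 or RES 4W replicate 1 and missed otherwise, at -0.81 to -0.50. Car14 missed with age without CON 1W replicates 2, 3 or 4 or any CON 4W array, at -0.60 to -0.49 over all 15, and in RES 4W without any CON 4W array or RES 4W replicates 2, 3 or 4, at 0.46 to 0.67.

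**Figure D4:**
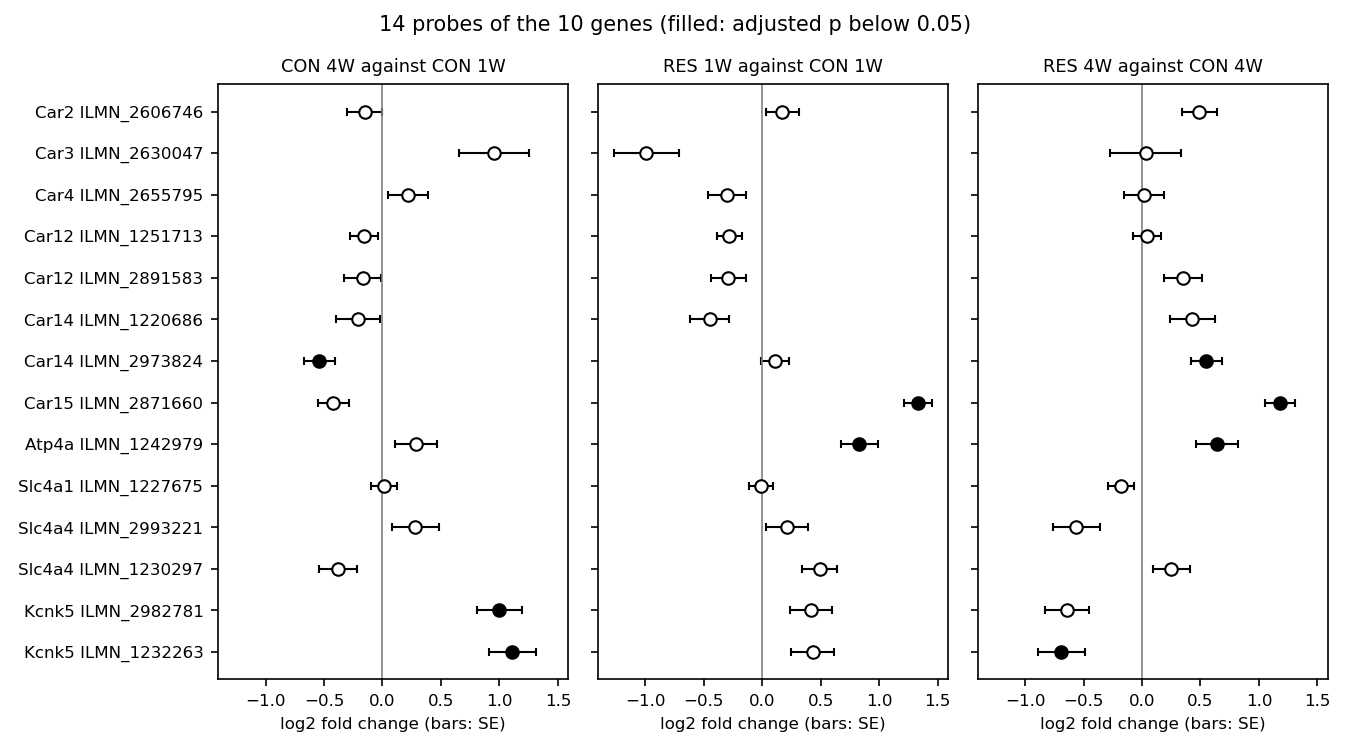
Log2 fold change (horizontal axis) with its SE for the 14 probes of the 10 genes detected on at least 12 arrays (vertical axis), in panels for age (CON 4W over CON 1W) and for restriction at 1W and at 4W. Filled points had an adjusted p below 0.05 in limma, and the Car15 point stands at 1.33 in RES 1W and 1.18 in RES 4W.

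Genes whose pattern over the 15 arrays came closest to that of the called genes were found by the root mean square difference of centred log2 levels, among 10828 other genes. Nearest to Car15 were Slc6a12, the betaine and GABA transporter, at 0.21, and Nccrp1 at 0.23, where Car15 itself spread by 0.68 around its mean. Slc6a12 had means of 7.44 ± 0.04 in CON 1W, 9.17 ± 0.23 in RES 1W, 7.27 ± 0.16 in CON 4W and 8.59 ± 0.04 in RES 4W (SD, n = 4, 4, 3 and 4). Nearest to Atp4a were Ranbp3l at 0.20 and Fam107a at 0.22, against its own spread of 0.45. Nearest to Kcnk5 were Relb at 0.24 and Ocln, the tight junction protein occludin, at 0.25, against its own spread of 0.41. Relb was dim, with a mean of 4.97 in CON 1W and detection on 2 of 4 arrays there. Nearest to Car14 were Ifitm2 at 0.10 and Ybx2 at 0.11, against its own spread of 0.28.

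A further 62 genes of acid-base handling were listed by function, of which 54 had a probe and 41 were tested, each by its brightest tested probe. Like all gene lists here, this one was drawn up with earlier results of these data known. Its calls and adjusted p-values therefore describe these arrays, and nothing is supported by them. In CON 4W against CON 1W 2 of the 41 were called, both lower, where 3.42% of the 10838 tested genes were called. They were Atp6v1b1, the proton pump subunit of intercalated cells, at -1.06 (SE 0.27, limma adjusted p = 0.045), and Atp12a, the non-gastric potassium-proton pump and so a relative of Atp4a, at -0.59 (SE 0.14, limma adjusted p = 0.035). Atp12a was dim, detected on all 4 CON 1W arrays and on 1 of 3 CON 4W arrays, and Atp6v1b1 on 2 of 3 CON 4W arrays. Over the 15 fits that left out 1 array each, Atp12a passed in 10 and Atp6v1b1 in 4, and both were lost without CON 4W replicate 2, at -0.45 and -1.17. Over the alternative settings Atp12a passed in 1 of 8, at -1.16 to -0.28, and Atp6v1b1 in 3 of 9, at -1.50 to -0.68. The other tested Atp6v1b1 probe, ILMN_2879910, gave 0.15 (SE 0.19). The median over the 41 genes was -0.16, against 0.00 over all genes.

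In RES 1W against CON 1W 5 of the 41 were called, 3 higher and 2 lower, where 3.4% of tested genes were. Car9, a membrane carbonic anhydrase induced by low oxygen, rose from 7.21 ± 0.25 to 8.15 ± 0.31 (SD, n = 4 and 4), a log2 fold change of 0.94 (SE 0.16, limma adjusted p = 0.0039). It was the only one of the 5 other carbonic anhydrases tested that was called. Slc4a8, a sodium-driven chloride-bicarbonate exchanger, rose by 0.71 (SE 0.14, limma adjusted p = 0.0092) and Slc4a9, an exchanger of type B intercalated cells, by 0.46 (SE 0.10, limma adjusted p = 0.016). That Slc4a8 value came from ILMN_1213975, while its other probes gave 0.43 (SE 0.13, limma adjusted p = 0.11) and -0.08 (SE 0.24), and the other Car9 probes gave 0.66 (SE 0.23) and 0.31 (SE 0.13), not called. Slc26a6, an anion exchanger of the proximal tubule brush border, fell by 0.64 (SE 0.16, limma adjusted p = 0.042) and the proton pump subunit Atp6v0e2 by 0.34 (SE 0.09, limma adjusted p = 0.049). Car9 and Slc4a8 passed whichever array was left out, while Slc4a9 passed in 13 of the 15 fits, Slc26a6 in 6 and Atp6v0e2 in 3. Slc26a6 and Atp6v0e2 each passed in 4 of 9 alternative settings. Slc4a9 missed without CON 1W replicate 3 or RES 1W replicate 4, at 0.43 and 0.46.

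In RES 4W against CON 4W 4 of the 41 were called, 2 in each direction, where 5.83% of tested genes were. Slc4a9 was higher again, at 7.50 ± 0.15 (SD, n = 4) against 6.78 ± 0.03 (SD, n = 3), a change of 0.71 (SE 0.11, limma adjusted p = 0.0047), and Slc26a6 lower again, by -0.90 (SE 0.17, limma adjusted p = 0.013). Slc9a8, a sodium-proton exchanger, rose by 0.62 (SE 0.16, limma adjusted p = 0.033). Atp6v1a, the catalytic subunit of the vacuolar proton pump, fell by 1.20 (SE 0.27, limma adjusted p = 0.022), with a range of 6.82 to 8.39 in RES 4W against 8.49 to 8.53 in CON 4W. Without RES 4W replicate 1 these values were 0.78 (limma adjusted p = 6.7e-05) for Slc4a9, -0.97 (limma adjusted p = 0.0012) for Slc26a6, 0.68 (limma adjusted p = 0.006) for Slc9a8 and -1.56 (limma adjusted p = 4.2e-06) for Atp6v1a. That array was left out after its likeness to CON 4W was seen. Calls then rose from 5.83% to 21.6% of tested genes, so these smaller p-values add no support. Slc4a9 and Slc26a6 passed whichever array was left out, Slc9a8 in 10 of the 15 fits and Atp6v1a in 9. Over 9 alternative settings Slc9a8 passed in 4, at 0.40 to 0.83, and Atp6v1a in 5. With RES 4W replicate 1 left out 10 of the 41 were called, 7 higher and 3 lower, where 21.6% of tested genes were.

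None of the 41 was called by limma for the change with restriction at 4W minus that at 1W, where 0.572% of tested genes were called, and 5 were without RES 4W replicate 1, where 13.3% were. With all arrays 5 of the 41 had an unadjusted p below 0.05, against 17.4% of tested genes, and the linear model without moderated variances also called none. Of 18 tested subunits of the vacuolar proton pump, read by their brightest probes, 1 was called in each of the first 3 comparisons. The share of all tested genes called was 3.42% with age, 3.4% in RES 1W and 5.83% in RES 4W. Other probes of subunits were also called in RES 4W, at 0.51 for Atp6v0d1, 0.85 for Atp6ap2 and -0.75 for Atp6v1c1, with limma adjusted p = 0.038, 0.045 and 0.042, and these are named after their values were seen. The brightest probes of the same genes gave 0.17 (SE 0.09), 0.00 (SE 0.10) and -0.15 (SE 0.14) there, none called. Of all tested probes 6.49% were called in that comparison. Of the ammonia transporters, neither Rhbg nor Rhcg was called in any comparison. Car1, Car6, Car8, Car10, Atp4b and Slc26a7 had probes but were not detected on enough arrays to test.

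**Figure D5:**
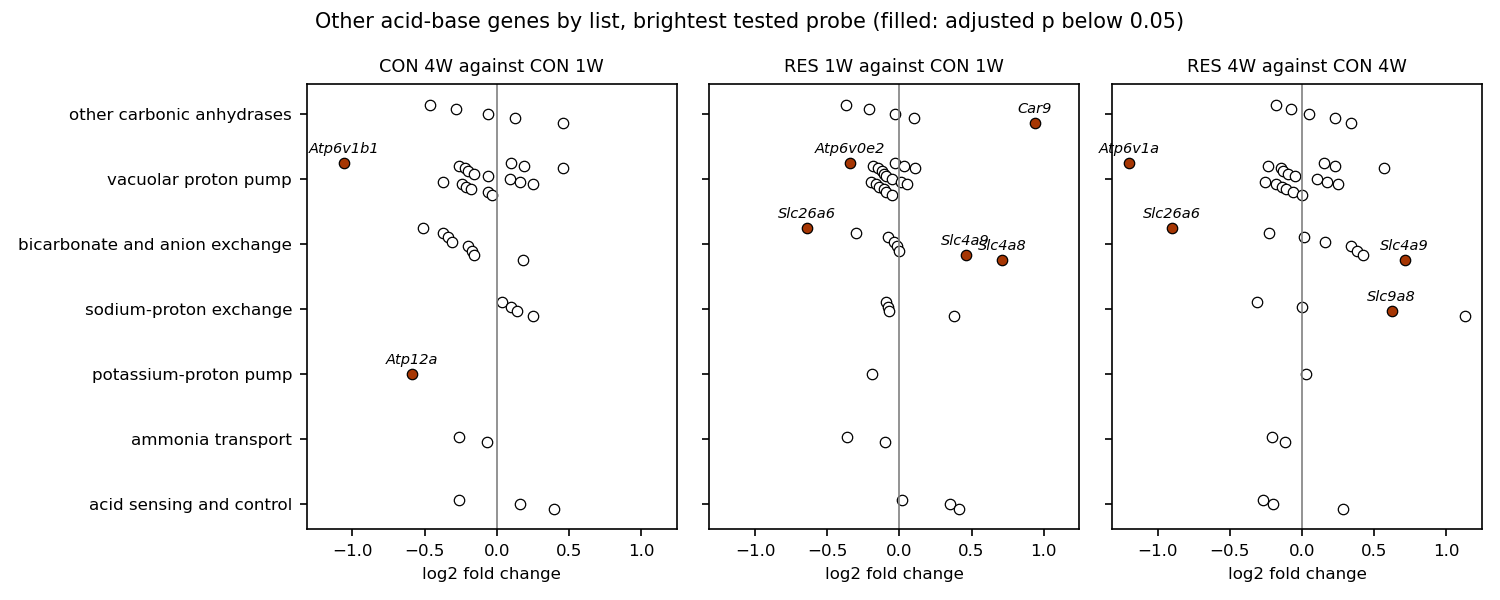
Log2 fold change (horizontal axis) of the 41 other acid-base genes, grouped by list (vertical axis), in panels for age (CON 4W over CON 1W) and for restriction at 1W and at 4W. Each point is a gene read by its brightest tested probe, and filled points with names had an adjusted p below 0.05 in limma. Slc4a9 is filled in both restriction panels, at 0.46 and 0.71.

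Markers of the tubule cells that carry these proteins are given for comparison. Of all tested genes 3.4% were called in RES 1W and 5.83% in RES 4W, so few calls are expected in lists this short. Of 12 intercalated cell markers 9 were tested, and their mean level was 6.75 to 6.96 in CON 1W, 6.77 to 6.94 in RES 1W, 6.63 to 6.71 in CON 4W and 6.61 to 6.88 in RES 4W. Slc4a9 was the only one of them called with restriction at either age, while Slc26a4, or pendrin, differed by 0.00 (SE 0.14) and 0.01 (SE 0.15). The remaining tested members stood in both directions. In RES 1W Foxi1 stood at 0.35, Dmrt2 at 0.21 and Aqp6 at 0.00. Rhbg stood at -0.36 there, Atp6v1b1 at -0.20, Atp6v1g3 at -0.12 and Atp6v1c2 at -0.11. In RES 4W Atp6v1b1 stood at 0.57, Dmrt2 at 0.24, Atp6v1g3 at 0.23 and Atp6v1c2 at 0.15. Aqp6 stood at -0.26 there, Rhbg at -0.21 and Foxi1 at -0.20. Atp6v0d2, Insrr and Hepacam2 were too dim to test. The 8 principal cell markers had a mean of 8.45 to 8.65 in CON 1W against 8.73 to 8.84 in RES 1W, and 8.44 to 8.63 in CON 4W against 8.70 to 9.04 in RES 4W. Aqp2, the vasopressin-dependent water channel among them, rose by 1.46 (SE 0.23, limma adjusted p = 0.002) and 2.11 (SE 0.25, limma adjusted p = 7e-04). Aqp3, a water channel of the basolateral face, was also called in RES 1W, at 0.50 (SE 0.09, limma adjusted p = 0.0049). Aqp4 stood at 0.48 and Avpr2 at 0.03 without a call, and the other members stood the other way in RES 1W, also not called, with Scnn1b at -0.27, Fxyd4 at -0.34, Hsd11b2 at -0.28 and Scnn1g at -0.04. In RES 4W only Aqp2 was called. There Aqp3 stood at 0.25, Aqp4 at 0.12 and Avpr2 at 0.45, and Scnn1b at -0.07, Fxyd4 at -0.03, Hsd11b2 at -0.16 and Scnn1g at -0.07. The mean level of the 10 proximal tubule markers was between 9.90 and 10.14 on every array, while single markers moved in both directions. In RES 1W Aqp1 was called at 0.53 and Slc22a6 at -0.49 (limma adjusted p = 0.02 and 0.011), and in RES 4W Slc5a2 at 0.96 and Slc5a12 at 0.62 (limma adjusted p = 0.0097 and 0.014). The 6 thick ascending limb markers had a mean of 11.25 to 11.34 in CON 1W against 11.49 to 11.64 in RES 1W. At 4W it was 11.18 to 11.30 in CON against 11.29 to 11.45 in RES. Slc12a1 was called in RES 1W, at 0.56 (SE 0.11, limma adjusted p = 0.0084). Without a call, Kcnj1 stood at 0.37, Ppp1r1b at 0.34, Cldn16 at 0.19, Umod at 0.09 and Cldn10 at -0.08. None was called in RES 4W. There Cldn16 stood at 0.29, Slc12a1 at 0.27, Kcnj1 at 0.24, Ppp1r1b at 0.18, Umod at 0.01 and Cldn10 at -0.16. The part of cell composition in the levels of Car15, Atp4a and Kcnk5 was not tested.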

How the data were processed

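Illumina MouseWG-6 arrays of 15 kidney RNA samples were used. The authors quantified and quantile-normalized them in GenomeStudio 1.0.2, and the deposited intensities, with a detection p-value per probe, came background-subtracted and normalized, with 34.9% of values at or below 0. A deposited table of log2 values from the authors left 52.2% of values empty and served as an alternative. The intensities were corrected with the limma neqc function (limma 3.58.1, R 4.3.3), which infers the background from the detection p-values, with an offset of 16, quantile normalization and log2. Probes with a detection p below 0.05 on at least 3 arrays were tested (19027 of 45281). A linear model with 4 group means was fitted with limma lmFit and eBayes, two-sided, with Benjamini-Hochberg adjustment over tested probes. Simulated data with known fold changes were used to test the fit. The number of arrays limits the precision.

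The 10 genes and all gene lists were chosen with earlier results of these data known. Probes were named from the platform annotation, updated through the gene ID (16332 of 16351 tested probes with 1 symbol), and those with several symbols (7) or none (2669) were not named. Named were every probe of the 10 genes, a gene's brightest tested probe elsewhere, up to 4 called genes per list and comparison, and the 2 genes nearest in pattern to each called one. Promoter sequences are from RefSeq, build GRCm38.p6. Neither the labels nor the files used here give a slide or scan, so no array batch could be fitted. Same-numbered arrays of different groups showed no shared deviation (r of -0.12 to 0.19 over 21 pairs, median 0.01). Pairs of different number gave r of -0.24 to 0.17 over 63 pairs. The replicate numbers were left out of the main fit, and the labels do not say what they stand for. Alternatives changed the background correction, offset, scaling, source table, filter, test, samples in the fit, block, probe per gene and arrays.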

Additional observations from a re-analysis of the deposited data

How the results depend on the processing

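No log2 fold change of the 10 genes that exceeded 2 SE, and none of the other acid-base genes that was called by its brightest probe, changed sign under the alternatives run. Car15 and Atp4a in RES 1W and both Kcnk5 probes with age passed under all 9 alternative settings, and Car15 in RES 4W under 8 of 9, missing where only the groups compared were fitted. With all arrays 565 probes were called with age, 534 with restriction at 1W (RES 1W), 1235 at 4W (RES 4W) and 111 for the 4W change minus the 1W change. The authors' processed log2 values gave 249, 245, 226 and 15. RES 4W fell to 510 with no filter, 400 with the methods' ANOVA and 3 with only the groups compared, and the difference to 27 and 23 with no filter and the ANOVA, and rose to 268 with an offset of 50 and to 288 with the strict filter (detection p below 0.01 in every array of at least 1 group). Of the 16 probes of the 10 genes, the 4 called in RES 4W became 2 without further correction of the deposited intensities, 1 with the authors' values, 2 with no filter, 2 with the ANOVA and 0 with only the groups compared, and the 0 called for the difference became 2 with an offset of 50 and 2 with the strict filter, both Kcnk5. Of the 41 other genes, the 2 called with age became 0 without further correction, with the authors' values, with no filter and with the ANOVA, and 1 with an offset of 50, median scaling, the strict filter or when a gene's probes were averaged. The 5 called in RES 1W became 3 without further correction and with the authors' values, and the 4 in RES 4W became 2 with the authors' values, no filter or the ANOVA and 0 with only the groups compared. No fit on only the groups compared exists for the difference.

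With the replicate number as a block, which pairs arrays by number only, 819 probes were called in RES 4W, 2 of the 16 probes there, and 0 and 3 of the other genes with age and in RES 1W, while the other counts stayed within 1.5 times of the fit without it. Leaving out single arrays gave 278 to 923 probes with age, 290 to 822 in RES 1W, 169 to 4574 in RES 4W and 16 to 2857 for the difference, the highest always without RES 4W replicate 1 and the lowest without CON 4W replicate 2, RES 1W replicate 4, RES 4W replicate 4 and CON 1W replicate 3. Of the 16 probes 2 to 4, 2 to 3, 1 to 8 and 0 to 6 were called, and of the other genes 0 to 5, 2 to 6, 2 to 10 and 0 to 5. The cause of these changes was not tested. Near background, as for Car3 in RES 1W, Atp12a and the rarely detected Slc4a4 and Kcnk5 probes, intensity limits what fold changes can show.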
